A study of Mus musculus with 6 samples.

Results

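Antigen presentation was followed through 10 mRNAs across ribosome profiling (Ribo-seq) libraries of 6 mouse tissues, 6 of them from the MHC class II pathway (Cd74, H2-Aa, H2-Ab1, H2-Eb1, H2-DMa and Ciita) and 4 from the MHC class I pathway (B2m, H2-K1, Tap1 and Nlrc5). They were chosen by gene symbol through the Ensembl gene ID in each row, and all 10 were found among the 18437 mRNAs listed in any library. The libraries came from lung, heart, kidney, brain, small intestine and colon of untreated wild-type (WT) C57BL/6J mice aged 4 weeks, with 1 library per tissue. Ribo-seq sequences the mRNA fragments that translating ribosomes protect from RNase. Each value is an RPKM, the reads on the coding sequence (CDS) per kilobase, scaled to the reads on all CDSs of the library, which gives the ribosome density of the mRNA. It mixes the amount of an mRNA with how densely ribosomes cover it, and no mRNA abundance was used here.

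MHC class II molecules display peptides from endosomes to CD4+ T cells and are made mainly by dendritic cells, B cells and macrophages, and in the lung also by alveolar type II cells. An alpha and a beta chain pair in the endoplasmic reticulum around the invariant chain, and the chaperone H2-DM later exchanges the remnant of that chain for a peptide. MHC class I molecules display cytosolic peptides to CD8+ T cells on nearly all nucleated cells, and consist of a heavy chain such as H2-K or H2-D, beta-2 microglobulin and a peptide delivered by the TAP transporter. Interferon gamma raises both pathways, through the coactivators CIITA for class II and NLRC5 for class I.

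Between 4504853 and 10635031 reads on CDSs were recovered per library, so that 3 reads on a CDS of 1000 bases gave between 0.282 and 0.666 RPKM. Of 18 tissue markers, those of heart and lung were highest under their own labels, whereas the brain markers were highest in the small intestine-labelled library, those of small intestine in the brain-labelled one, those of kidney in the colon-labelled one and those of colon in the kidney-labelled one. The labels of 4 libraries were thus contradicted by their markers. Each library is therefore named by its label, no tissue order is read beyond the labels, and the comparison of lung with heart, whose labels were not contradicted, is given apart. A tissue name alone below stands for the library with that label. No test between tissues was possible with a single library each. The 95% intervals are exact for counts (Poisson for a level, conditional binomial for a ratio) and cover counting error only, since the reads carry no molecular identifiers and no replicate shows the spread between animals.

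Both pathways followed a similar order over the libraries. The lung-labelled library was highest for 7 of the 10 members, against 24.7% of all mRNAs tested, and the small intestine-labelled one was lowest, ties at 0 included, for 9 of 10, against 20.8%. Both counts include Nlrc5, which did not reach the 1 RPKM required of the mRNAs tested. In the small intestine-labelled library Nlrc5 was tied at 0 with the brain-labelled one. The libraries labelled brain and kidney stood between these and above those labelled colon and heart for most members. In bulk tissue a smaller number of cells that express a gene and less of its RNA per cell cannot be told apart.

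**Figure D1:**
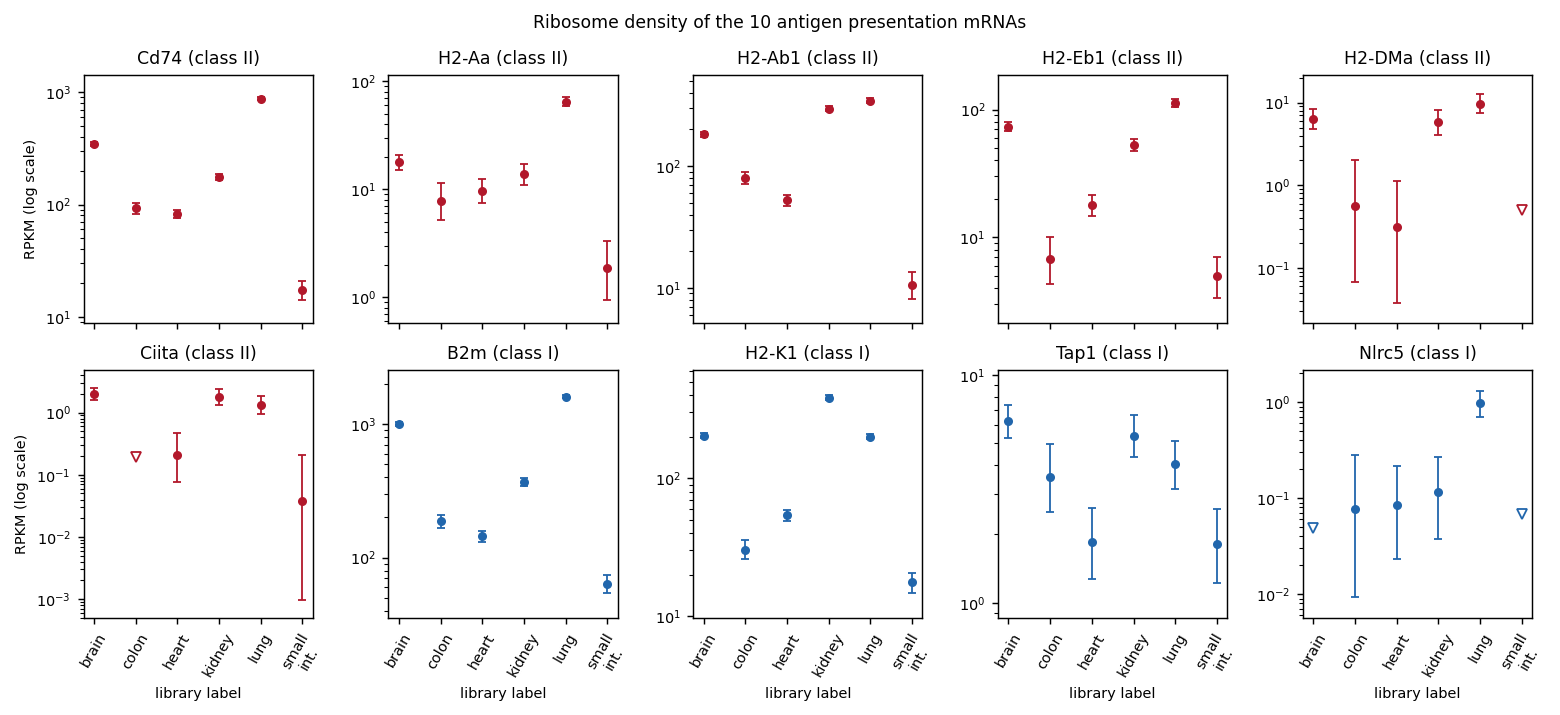
Ribosome density of the 10 members in the 6 libraries, in RPKM on a log axis that differs between panels. Points are single libraries, bars are exact 95% Poisson intervals of the reads, and open triangles mark libraries with no reads, drawn at the RPKM that 3 reads would give. Cd74 ran from 17.2 to 877 RPKM and B2m from 63.4 to 1604 RPKM, both lowest in the small intestine-labelled library and highest in the lung-labelled one.

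Cd74 encodes the invariant chain, which guides class II molecules to endosomes. Its ribosome density was 877 RPKM (854 to 900) in the lung-labelled library, 348 RPKM (336 to 360) in the brain-labelled one and 176 RPKM (165 to 186) in the kidney-labelled one. It was 92.6 RPKM (83.1 to 103) in the colon-labelled library, 82.2 RPKM (75.5 to 89.3) in the heart-labelled one and 17.2 RPKM (14.1 to 20.7) in the small intestine-labelled one. Lung exceeded small intestine 51.0-fold (42.2 to 62.2) and heart 10.7-fold (9.78 to 11.7), while colon and heart did not differ beyond counting error (ratio 1.13, 0.982 to 1.29). Cd74 was the most densely translated class II member in 5 libraries, H2-Ab1 in the kidney-labelled one. It ranked 126 among the 11594 mRNAs with reads in the lung-labelled library and 4322 among 15028 in the small intestine-labelled one. The CDS used has 837 bases. Of the 15 CDSs annotated for Cd74 in GENCODE M39, 12 are shorter and 2 longer, the longest with 990 bases. Densities would be understated where shorter forms prevail.

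H2-Aa, on chromosome 17 from 34493404 to 34506798 of GRCm39 (minus strand), encodes the alpha chain of the I-A molecule. Its ribosome density was 64.8 RPKM (385 reads) in the lung-labelled library, 17.8 RPKM (145 reads) in the brain-labelled one, 13.9 RPKM (81 reads) in the kidney-labelled one, 9.71 RPKM (61 reads) in the heart-labelled one, 7.80 RPKM (27 reads) in the colon-labelled one and 1.87 RPKM (11 reads) in the small intestine-labelled one. Lung stood 3.65-fold (3.01 to 4.45) above the next library, brain and kidney did not differ beyond counting error (1.28, 0.966 to 1.70), and neither did heart and colon (1.24, 0.779 to 2.04). H2-Ab1 encodes the beta chain that pairs with it and lies beside it, from 34476663 to 34488393 on the plus strand. It had 345 RPKM (330 to 360) in the lung-labelled library, 297 RPKM (283 to 311) in the kidney-labelled one and 182 RPKM (173 to 192) in the brain-labelled one. H2-Ab1 had 79.6 RPKM (70.6 to 89.4) in the colon-labelled library, 52.3 RPKM (46.9 to 58.1) in the heart-labelled one and 10.5 RPKM (8.11 to 13.4) in the small intestine-labelled one. All neighbours in this order differed beyond counting error, but lung and kidney did so only 1.16-fold (1.09 to 1.24), and kidney became the highest once Kri1 and the mitochondrially encoded mRNAs were left out of the totals or libraries were scaled by the median of ratios. Kri1 alone took between 0.400% and 22.1% of the reads of a library, with the highest share in the kidney-labelled one.

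H2-Eb1, from 34504236 to 34535648 on the plus strand of chromosome 17, encodes the beta chain of the I-E molecule. C57BL/6 mice do not make the alpha chain of I-E, because the H2-Ea gene of their haplotype lacks its promoter, and H2-Ea was not analysed here. H2-Eb1 was nonetheless translated, with 112 RPKM (104 to 121) in the lung-labelled library, 73.5 RPKM (67.8 to 79.5) in the brain-labelled one, 52.9 RPKM (47.3 to 59.1) in the kidney-labelled one and 17.9 RPKM (14.8 to 21.5) in the heart-labelled one. Only 6.73 RPKM (4.31 to 10.01) were found in the colon-labelled library and 4.95 RPKM (3.34 to 7.07) in the small intestine-labelled one, which did not differ beyond counting error (1.36, 0.760 to 2.40). Its level was 6.27-fold (5.14 to 7.70) higher in lung than in heart.

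H2-DMa, from 34338515 to 34358958 on the same strand, encodes the alpha chain of the peptide exchange factor H2-DM and was far less densely translated than the chains it acts on. It had 9.75 RPKM (59 reads) in the lung-labelled library, 6.36 RPKM (53 reads) in the brain-labelled one and 5.89 RPKM (35 reads) in the kidney-labelled one, and only 2 reads each in those labelled colon and heart. No read was found in the small intestine-labelled library, which allows up to 0.501 RPKM at 3 reads, so that lung was at least 19.4-fold higher by this floor, and the exact interval of the ratio began at 15.3. The 3 libraries with the most reads stood apart from the other three, and among them brain and kidney did not differ beyond counting error (1.08, 0.692 to 1.71). Ciita, the coactivator that switches on class II genes, lies on chromosome 16 from 10297923 to 10347694 (plus strand). It had 2.01 RPKM (74 reads) in the brain-labelled library, 1.79 RPKM (47 reads) in the kidney-labelled one, 1.34 RPKM (36 reads) in the lung-labelled one and 0.212 RPKM (6 reads) in the heart-labelled one. There was 1 read in the small intestine-labelled library and none in the colon-labelled one, where 3 reads would give 0.192 RPKM. Counting error left these first 3 libraries without a clear order for Ciita, at 1.12 (0.769 to 1.65) for brain over kidney, 1.33 (0.844 to 2.11) for kidney over lung and 1.49 (0.990 to 2.29) for brain over lung. Its highest library was kidney in place of brain when Kri1 and the mitochondrially encoded mRNAs were left out of the totals or libraries were scaled by the median of ratios, and the same held for Tap1.

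B2m, on chromosome 2 from 121977957 to 121983594 (plus strand), encodes beta-2 microglobulin, the invariant light chain of all class I molecules. Its ribosome density was 1604 RPKM (1557 to 1652) in the lung-labelled library, 1000 RPKM (968 to 1032) in the brain-labelled one and 369 RPKM (346 to 393) in the kidney-labelled one. It was 187 RPKM (167 to 210) in the colon-labelled library, 144 RPKM (131 to 159) in the heart-labelled one and 63.4 RPKM (54.3 to 73.6) in the small intestine-labelled one. All neighbours in this order differed beyond counting error, and lung exceeded heart 11.1-fold (10.1 to 12.3) and small intestine 25.3-fold (21.7 to 29.6). B2m ranked 48 in the lung-labelled library and was the most densely translated member in 5 libraries, H2-K1 in the kidney-labelled one, where the ratio of H2-K1 to B2m of 1.04 (0.968 to 1.12) did not differ from equality beyond counting error.

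H2-K1, from 34214987 to 34219321 on the minus strand of chromosome 17, encodes the heavy chain of the classical class I molecule H2-K. It had 384 RPKM (371 to 397) in the kidney-labelled library, 203 RPKM (195 to 211) in the brain-labelled one, 200 RPKM (191 to 210) in the lung-labelled one, 54.1 RPKM (49.4 to 59.1) in the heart-labelled one, 30.5 RPKM (25.8 to 35.7) in the colon-labelled one and 17.6 RPKM (14.9 to 20.7) in the small intestine-labelled one. Kidney stood 1.89-fold (1.79 to 2.00) above the next library, and brain and lung did not differ beyond counting error (1.01, 0.951 to 1.08). Lung was 3.70-fold (3.35 to 4.10) higher than heart, a smaller ratio than for B2m or Cd74.

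Class I heavy chains are the members whose reads are most easily lost, because the genes resemble each other and the authors left out multi-mapped reads. The mice and the reference genome are of the same strain, so that allelic differences need not cost reads here, whereas similarity between genes does. Of the 1079 windows of 29 nt in the H2-K1 CDS, 67.4% occurred once among all CDSs compared. It shared 239 windows (22.2%) with H2-D1, 176 (16.3%) with H2-Q4 and 152 (14.1%) with H2-T23. Without gaps, 928 of 1107 bases (83.8%) were identical between the H2-K1 and H2-D1 CDSs. The following stretches of 30 bases from the GRCm39 genome, 5′ to 3′, show both cases. The first, bases 766 to 795 of the H2-K1 CDS and 775 to 804 of that of H2-D1, is identical. It occurred in 17 class I mRNAs other than H2-K1, with H2-D1 among these 17, so that a footprint from it could not be assigned.
H2-K1 and H2-D1, shared stretch: cctgcaggggatggaaccttccagaagtgg
The second, bases 328 to 357 of H2-K1 and 337 to 366 of H2-D1, has 8 differences, in capitals. Neither run occurred in any other class I mRNA, so that both could be told apart from all others.
H2-K1, differing stretch: AAgggcggctctcacacTAtTcagGTgatC
H2-D1, differing stretch: GCgggcggctctcacacACtCcagCAgatG

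The other members lost little by this measure. The share of windows that occurred once was 100% for Cd74, H2-DMa, Ciita and B2m, 99.9% for H2-Aa, 98.8% for H2-Ab1, 97.8% for Tap1, 97.2% for Nlrc5 and 96.7% for H2-Eb1. The 2.19% of Tap1 windows that were not unique were shared with Tap2. By GENCODE M39, exons of a gene on the opposite strand overlapped 36.5% of the H2-K1 CDS (Gm53999), 11.98% of that of Ciita (Dexi) and 11.9% of that of H2-Eb1 (Gm20513), and whether reads were assigned by strand is not given in the sources used here. Windows were matched exactly, so reads with mismatches could add to the loss. Counted per unique window in place of CDS length, the ratio of H2-K1 to B2m rose from 1.04 to 1.46 in the kidney-labelled library and from 0.125 to 0.175 in the lung-labelled one, with the order of the libraries fixed by construction.

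**Figure D2:**
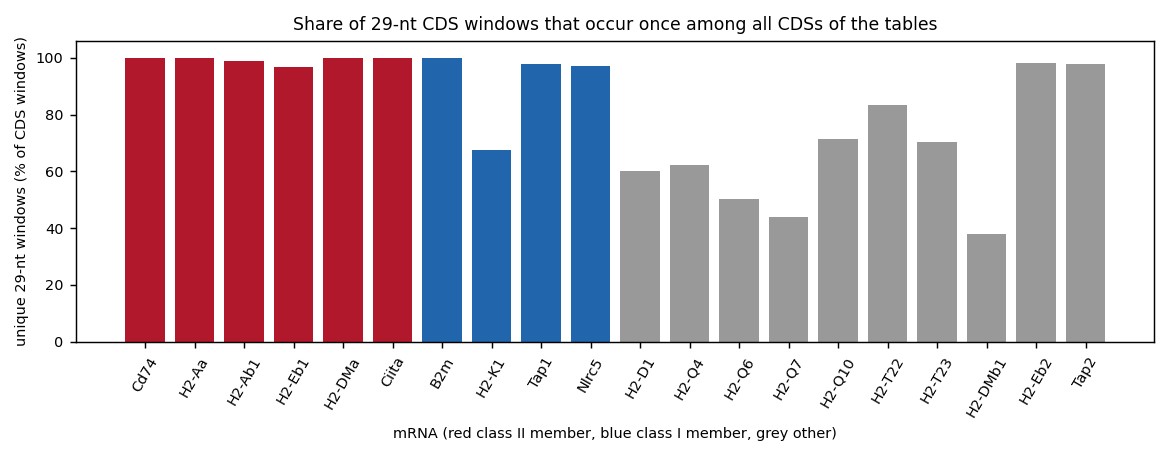
Share of 29-nt windows of each CDS that occur once among all CDSs of the tables, in percent, for the 6 class II members (red), the 4 class I members (blue) and 10 related mRNAs (grey). H2-K1 at 67.4% and H2-D1 at 60.1% stand below the class II members, which lie between 96.7% and 100%.

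H2-D1 encodes the other classical heavy chain of this strain and was the most densely translated heavy chain of the lists in every library except the brain-labelled one, where H2-T23, which encodes the nonclassical molecule Qa-1, was higher. H2-D1 had 1510 RPKM in the lung-labelled library, 1154 RPKM in the brain-labelled one, 1086 RPKM in the kidney-labelled one, 205 RPKM in the colon-labelled one, 151 RPKM in the heart-labelled one and 113 RPKM in the small intestine-labelled one. It exceeded H2-K1 in all 6 libraries, from 2.78-fold (2.51 to 3.09) in the heart-labelled one and 2.83-fold (2.72 to 2.95) in the kidney-labelled one to 7.54-fold (7.17 to 7.93) in the lung-labelled one. The ratio per unique window was higher, from 3.12 to 8.45. H2-T23 had 1321 RPKM in the brain-labelled library, 558 RPKM in the lung-labelled one and 419 RPKM in the kidney-labelled one, against 15.4 RPKM in the heart-labelled one. Lung exceeded heart 36.2-fold (30.5 to 43.3) for H2-T23 and 10.04-fold (9.50 to 10.6) for H2-D1.

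Tap1, from 34405996 to 34416199 on the plus strand of chromosome 17, encodes a subunit of the peptide transporter and varied least among the members with reads in every library. It had 6.28 RPKM (145 reads) in the brain-labelled library, 5.40 RPKM (89 reads) in the kidney-labelled one, 4.05 RPKM (68 reads) in the lung-labelled one, 3.58 RPKM (35 reads) in the colon-labelled one, 1.86 RPKM (33 reads) in the heart-labelled one and 1.81 RPKM (30 reads) in the small intestine-labelled one. Among neighbours in this order, only colon and heart differed beyond counting error (1.93, 1.16 to 3.20). Lung over heart was 2.18-fold (1.42 to 3.41). Nlrc5, the class I coactivator, lies on chromosome 8 from 95160984 to 95253900 (plus strand) and was the member with the fewest reads, 54 in all libraries together. It had 0.968 RPKM (43 reads) in the lung-labelled library, 5 reads in the kidney-labelled one, 4 in the heart-labelled one, 2 in the colon-labelled one and none in those labelled brain and small intestine. Lung exceeded kidney 8.44-fold (3.35 to 27.3), and the other libraries did not differ from their neighbours beyond counting error. In the brain-labelled library, where Nlrc5 had no reads, Ciita had 74.

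Class II was set against class I by the mean of log2(RPKM + 1) over Cd74, H2-Aa, H2-Ab1, H2-Eb1 and H2-DMa and that over B2m, H2-K1 and Tap1. The class II mean was 6.90 in the lung-labelled library, 5.86 in the brain-labelled one, 5.62 in the kidney-labelled one, 4.03 in the heart-labelled one, 3.92 in the colon-labelled one and 2.36 in the small intestine-labelled one. The class I mean was 6.88, 6.83, 6.60, 4.83, 4.91 and 3.91 in the same order. The class II mean thus spanned a 23.2-fold range and the class I mean a 7.86-fold range, with lung highest and small intestine lowest for both. The narrower class I range rested in part on Tap1. Lung exceeded small intestine 2.24-fold for Tap1, against 25.3-fold for B2m and 11.4-fold for H2-K1. In 4 libraries class II stood below class I by a similar distance, with differences of -0.97 (-1.09 to -0.86) in the brain-labelled one, -0.98 (-1.12 to -0.83) in the kidney-labelled one, -0.99 (-1.24 to -0.73) in the colon-labelled one and -0.79 (-0.97 to -0.61) in the heart-labelled one. The classes were level in the lung-labelled library, at 0.02 (-0.10 to 0.14), and furthest apart in the small intestine-labelled one, at -1.54 (-1.78 to -1.30). The intervals of lung and heart did not overlap on this measure. With the wider lists added it became -1.75 in the lung-labelled library, below the heart-labelled one at -1.32. Summed RPKM of the same 8 mRNAs gave -0.36 in lung and -0.30 in heart, and densities per unique window -0.17 and -0.99, so the level state of lung and the order of lung and heart depended on how the mRNAs were chosen and averaged. Without Tap1, a choice made after its values were seen, the differences were -2.25 in lung and -2.45 in heart. The classes were then further apart in brain (-2.96) than in small intestine (-2.75). With the wider lists they were further apart in lung (-1.75) than in small intestine (-1.25). Summed RPKM, unique windows and a pseudocount of 0.1 left small intestine with the largest distance.

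**Figure D3:**
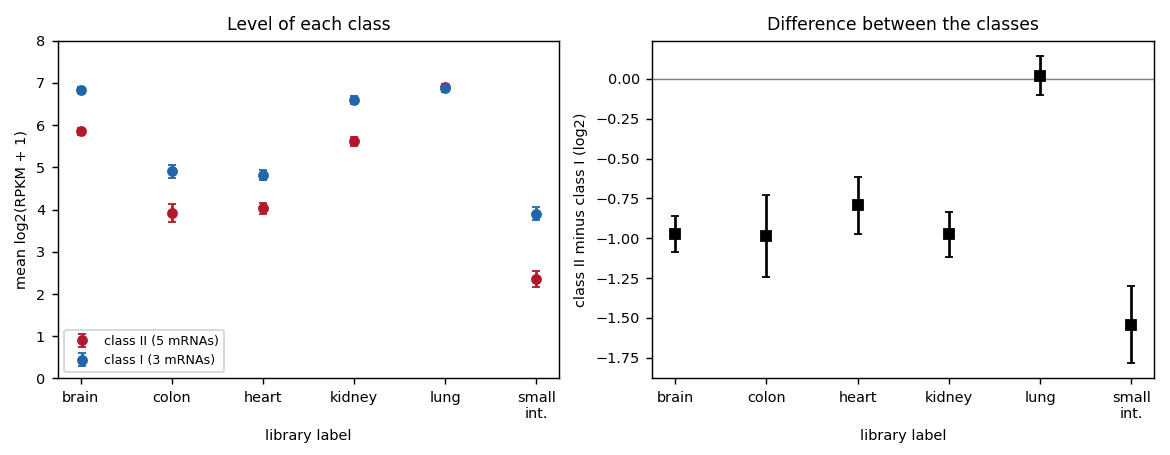
Left, mean log2(RPKM + 1) of 5 class II and 3 class I mRNAs in each library, and right, class II minus class I on the log2 scale. Bars are 95% intervals from counting error, and each point is 1 library. The difference is 0.02 in the lung-labelled library, between -0.99 and -0.79 in those labelled brain, colon, heart and kidney, and -1.54 in the small intestine-labelled one.

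As a share of all reads on CDSs, the 5 class II mRNAs took 0.115% (95% Wilson interval 0.113 to 0.118) in the lung-labelled library, 0.0513% (0.0499 to 0.0527) in the brain-labelled one, 0.0440% (0.0425 to 0.0455) in the kidney-labelled one, 0.0153% (0.0142 to 0.0164) in the colon-labelled one, 0.0132% (0.0125 to 0.0140) in the heart-labelled one and 0.00281% (0.00246 to 0.00321) in the small intestine-labelled one. The 3 class I mRNAs took 0.0803% (0.0783 to 0.0823), 0.0595% (0.0580 to 0.0610), 0.0568% (0.0552 to 0.0585), 0.0108% (0.00991 to 0.0118), 0.0115% (0.0108 to 0.0123) and 0.00460% (0.00415 to 0.00511) in the same order. More reads thus fell on these 5 class II than on these 3 class I mRNAs in the libraries labelled lung, colon and heart. Fewer did in those labelled brain, kidney and small intestine. This order depends on the class I mRNAs chosen. The heavy chain H2-D1, not among the 3, alone had 13311 reads in lung, 1054 in colon and 1404 in heart. The 5 class II mRNAs had 8923, 687 and 1082 there. Leaving Kri1 and the mitochondrially encoded mRNAs out of the total raised both shares of a library alike, and the class II share was then higher in the kidney-labelled library (0.0591%) than in the brain-labelled one (0.0534%).

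A member was counted as higher or lower in a library where it was at least 2-fold above or below the median of the other 5 libraries, on the RPKM + 1 scale. The background is the share of the 15238 mRNAs with at least 1 RPKM in some library that passed the same threshold. Nlrc5 did not reach 1 RPKM and passed no threshold, so each count is of the 10 members with Nlrc5 among those not counted. In the lung-labelled library 7 members were higher (Cd74, H2-Aa, H2-Ab1, H2-Eb1, H2-DMa, B2m and H2-K1), against 29.3% of all mRNAs, and none was lower, against 17.8%. In the brain-labelled one 7 were higher, among them Ciita but not H2-Aa, against 20.8%, and none was lower, against 23.4%. The kidney-labelled library had 5 higher (H2-Ab1, H2-Eb1, H2-DMa, Ciita and H2-K1), against 19.6%, and none lower, against 15.7%. No member was higher in the other three libraries, against 22% for colon, 19.9% for heart and 29.3% for small intestine. Lower were 5 in the colon-labelled one, against 17.2%, 6 in the heart-labelled one, against 17.9%, and 8 in the small intestine-labelled one, against 20.1%. Tap1 passed the threshold in no library. The 5 in the colon-labelled library became 8 with Kri1 and the mitochondrially encoded mRNAs left out of the totals.

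The median log2 fold over all 10 members was 2.34 in the lung-labelled library, 1.60 in the brain-labelled one and 1.09 in the kidney-labelled one, and it was -1.08 in the colon-labelled one, -1.22 in the heart-labelled one and -2.65 in the small intestine-labelled one. Over all mRNAs tested it lay between 0.00 and 0.08. Lung set directly against heart gave the same 7 members at least 2-fold higher as lung against the median, with 38.9% of 12386 mRNAs passing this threshold. The 3 others were Ciita, with a ratio of RPKM of 6.35 (2.65 to 18.4) from 36 and 6 reads, Tap1 at 2.18 and Nlrc5 at 11.4 (4.14 to 43.7) from 43 and 4 reads, all below the threshold on the RPKM + 1 scale.

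Ratios within a library do not depend on its total. H2-Ab1 was more densely translated than its partner H2-Aa in every library, by 5.31-fold (4.77 to 5.94) in the lung-labelled one, 5.38-fold (4.09 to 7.19) in the heart-labelled one and 5.62-fold (2.94 to 11.8) in the small intestine-labelled one. The ratio was higher in the libraries labelled colon, at 10.2 (6.86 to 15.7), brain, at 10.3 (8.66 to 12.3), and kidney, at 21.3 (17.1 to 27.0). The chains of 1 heterodimer were therefore not covered by ribosomes at equal density, and the kidney interval lay above those of all other libraries. H2-Eb1 over H2-Aa was 4.14 (3.45 to 5.0) in the brain-labelled library and 3.81 (2.97 to 4.92) in the kidney-labelled one, against 1.84 (1.34 to 2.56) in the heart-labelled one, 1.73 (1.53 to 1.97) in the lung-labelled one and 0.862 (0.476 to 1.55) in the colon-labelled one. The value of 2.64 (1.29 to 5.85) in the small intestine-labelled one rested on 11 reads of H2-Aa.

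Cd74 exceeded H2-Aa by 8.47-fold (6.49 to 11.2) in the heart-labelled library to 19.6-fold (16.6 to 23.3) in the brain-labelled one, with 13.5-fold (12.2 to 15.0) in the lung-labelled one. H2-DMa was below H2-Aa in all 6, at 0.424 (0.277 to 0.637) in the kidney-labelled library, 0.359 (0.257 to 0.494) in the brain-labelled one and 0.150 (0.112 to 0.198) in the lung-labelled one. Relative to H2-Aa, H2-DMa was thus lower in lung than in these libraries beyond counting error, but not relative to the beta chains. Its ratio to H2-Ab1 was 0.0283 (0.0215 to 0.0366) in lung, 0.0349 (0.0260 to 0.0459) in brain and 0.0199 (0.0138 to 0.0277) in kidney, and that to H2-Eb1 was 0.0869 (0.0654 to 0.113) in lung, 0.0866 (0.0641 to 0.115) in brain and 0.111 (0.0762 to 0.158) in kidney. Ciita over H2-Aa was 0.129 (0.0878 to 0.186) and 0.113 (0.0843 to 0.151) in the libraries labelled kidney and brain, and 0.0207 (0.0143 to 0.0292) in the lung-labelled one. In the class I pathway, H2-K1 over B2m ranged from 0.125 (0.118 to 0.132) in the lung-labelled library to 1.04 in the kidney-labelled one. Tap1 over B2m ranged from 0.00253 (0.00196 to 0.00321) in lung to 0.0285 (0.0187 to 0.0422) in small intestine, the reverse of the order of B2m itself at both ends.

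**Figure D4:**
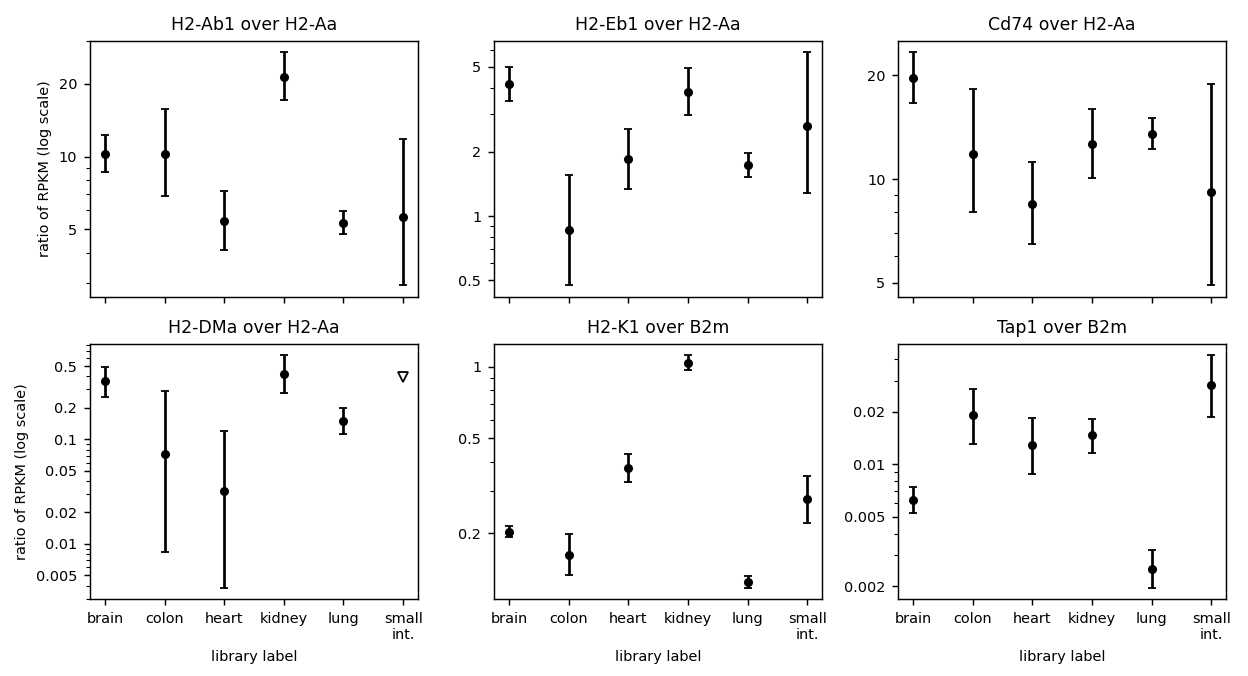
Ratios of RPKM between members within each library, on log axes that differ between panels. Bars are exact 95% conditional binomial intervals, and the open triangle is the upper limit where H2-DMa had no reads. H2-Ab1 over H2-Aa reaches 21.3 and H2-K1 over B2m reaches 1.04 in the kidney-labelled library, the highest of each panel.

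Of 23 further class I genes, all of which reached 1 RPKM, 17 were higher and 1 lower in the lung-labelled library, and none was higher and 13 lower in the small intestine-labelled one, read against the shares of all mRNAs given above. In the heart-labelled one 1 was higher and 11 lower. Psmb8, an interferon-inducible immunoproteasome subunit, had 110 RPKM in the brain-labelled library, 102 RPKM in the lung-labelled one, 32.0 RPKM in the kidney-labelled one, 21.1 RPKM in the heart-labelled one, 3.75 RPKM in the colon-labelled one and 2.05 RPKM in the small intestine-labelled one. Psmb9, its partner in the immunoproteasome, had between 8 and 26 reads and between 1.58 and 4.28 RPKM in every library. Tap2, the other TAP subunit, had 56.9 RPKM in the lung-labelled library and between 5.65 and 22 RPKM elsewhere, unlike Tap1. H2-T24 had 71.9 RPKM in the lung-labelled one and at most 11.8 RPKM elsewhere. Psme2, a proteasome activator subunit, had 38.0 RPKM in the brain-labelled one and 18.6 RPKM in the lung-labelled one, and at most 4.43 RPKM elsewhere, but only 20.3% of its windows occurred once when compared with whole mRNAs of all protein-coding genes.

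Of 13 further class II genes 10 could be counted, since Rfxap and H2-Ea were not analysed here and H2-DMb2 did not reach 1 RPKM. In this list, 4 were higher in the lung-labelled library, where 29.3% of all mRNAs were, so this count shows little, and 6 in the brain-labelled one, against 20.8%. Lower was 1 in each of these. In the small intestine-labelled one 1 was higher, against 29.3%, and 2 were lower, against 20.1%. H2-Oa and H2-Ob encode H2-DO, an inhibitor of H2-DM known from B cells. H2-Oa had 11.2 RPKM (89 reads) in the brain-labelled library, 4.75 RPKM (27 reads) in the kidney-labelled one, 1 read in the small intestine-labelled one and none in the other three. H2-Ob had 9.0 RPKM (87 reads) in the brain-labelled one and no reads elsewhere. Neither subunit was thus found in the lung-labelled library, where the chains were highest. H2-DMb1, a beta chain of H2-DM, had 33 reads (5.45 RPKM) in the lung-labelled one and none elsewhere, but only 37.9% of its windows occurred once, the same share as for its near copy H2-DMb2, so its lack of reads elsewhere is uncertain. Marchf1, a ubiquitin ligase that removes class II molecules from the surface, had 8.86 RPKM in the lung-labelled one, 3.80 RPKM in the small intestine-labelled one, 1.43 RPKM in the heart-labelled one and no reads in the other three.

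Of 16 interferon signalling genes, 11 were higher in the lung-labelled library, against 29.3% of all mRNAs, and 9 in the brain-labelled one, against 20.8%, with 1 lower in each. None was higher in the small intestine-labelled one and 12 were lower, against 20.1%. Irf1, a transcription factor that interferon gamma induces, had 208 RPKM in the brain-labelled library, 199 RPKM in the lung-labelled one, 62.1 RPKM in the kidney-labelled one, 21.4 RPKM in the colon-labelled one, 12.4 RPKM in the heart-labelled one and 2.12 RPKM in the small intestine-labelled one. Its relative Irf2 ranged from 3.75 RPKM in the small intestine-labelled one to 99.6 RPKM in the brain-labelled one. Isg15, an interferon-induced ubiquitin-like protein, had 129 RPKM in the brain-labelled one and 43.1 RPKM in the lung-labelled one, and at most 23.4 RPKM elsewhere. Ifngr2, a chain of the interferon gamma receptor, had 44.5 RPKM in the brain-labelled one and no reads in those labelled lung and colon.

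**Figure D5:**
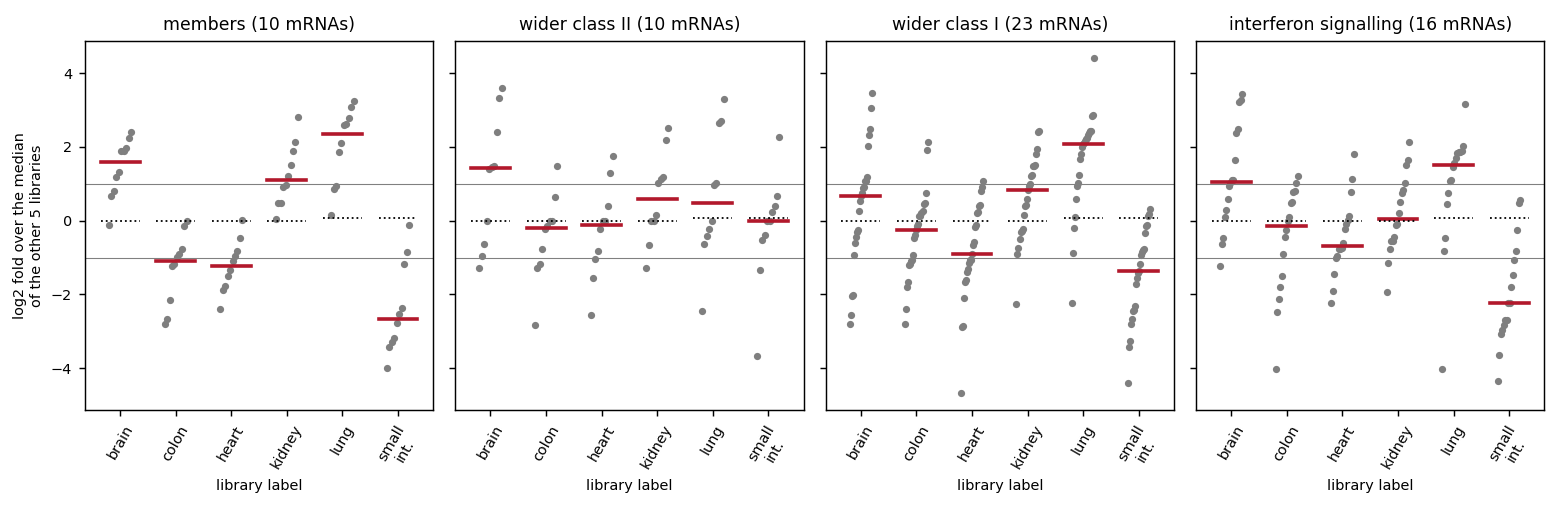
Log2 fold of each mRNA over the median of the other 5 libraries (RPKM + 1 scale) for the 10 members, 10 further class II genes, 23 further class I genes and 16 interferon signalling genes. Grey points are mRNAs, red bars their median, dotted lines the median of all mRNAs tested, and grey lines mark 2-fold. In the lung-labelled library the members' median is 2.34 and that of the further class I genes 2.07, against 0.49 for the further class II genes.

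Summed levels of genes that mark leukocytes, B cells, macrophages and dendritic cells were also highest in the lung-labelled library but did not all follow the order of the class II members below it, and their part in the result was not tested. The summed RPKM of 4 pan-leukocyte genes was 174 in the lung-labelled library, 105 in the brain-labelled one, 54.8 in the kidney-labelled one, 54.0 in the small intestine-labelled one, 28.1 in the heart-labelled one and 10.8 in the colon-labelled one. Among these genes, Ptprc, which encodes CD45, had 69.6 RPKM in lung, 31.5 in brain, 11.4 in kidney, 4.88 in heart, 1.05 in small intestine and 0.286 in colon, by label. The 7 B cell genes summed to 159 RPKM in the lung-labelled library and 70.4 RPKM in the brain-labelled one, and to between 3.60 and 19.9 RPKM elsewhere. The defining B cell genes Ms4a1 (205 reads) and Pax5 (14 reads) had reads in the lung-labelled one and none in any other library, including the brain-labelled one, where the H2-DO subunits were found. Others of the list did have reads there, with 41.1 RPKM (378 reads) for Cd79b and 8.92 RPKM (247 reads) for Cd22, both second to lung, and 20.1 RPKM (102 reads) for Jchain, its highest, against no reads in lung.

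The 12 macrophage genes summed to 1171 RPKM in the lung-labelled library, of which Lyz2, also made by alveolar type II cells, gave 727 and Chil3 gave 212, and to between 88.3 and 299 RPKM elsewhere. Without these, a choice made after their values were seen, the other 10 summed to 232 RPKM in lung, below 291 RPKM in kidney, with 220 RPKM in heart, 204 RPKM in brain, 153 RPKM in small intestine and 76.2 RPKM in colon. Marco, a marker of alveolar macrophages, had 32.6 RPKM in the lung-labelled one and at most 0.393 RPKM elsewhere. The 7 dendritic cell genes summed to 78.3 RPKM in the lung-labelled one, 34.3 RPKM in the brain-labelled one and between 3.77 and 20.9 RPKM elsewhere, with no reads of Xcr1 in any library and none of Flt3 in either of the first 2. Itgax alone gave 29.9 RPKM of the sum in the brain-labelled library and 35.2 RPKM in the lung-labelled one. In the brain-labelled library Adgre1, Cd68 and Marco had no reads, whereas the other 9 macrophage genes did, among them C1qa with 100.4 RPKM, C1qb with 48.7 RPKM and Csf1r with 19.5 RPKM. The 7 T and NK cell genes summed to 110 RPKM in the brain-labelled one, 98.6 RPKM in the lung-labelled one and between 3.92 and 29.7 RPKM elsewhere. Gzma alone gave 79.4 RPKM of the sum in the brain-labelled library, where Cd8a, Nkg7 and Klrb1c had no reads. Of the 7 genes, 1 was highest there, against 3 each in the libraries labelled lung and kidney. The 5 microglia genes were highest in the colon-labelled one, at 578 RPKM, where P2ry12 and Cx3cr1 had no reads, and did not follow the class II genes. Alveolar type II genes summed to 54065 RPKM in the lung-labelled one and at most 3211 RPKM elsewhere, and endothelial genes to 2089 RPKM against at most 451 RPKM, so the sums for these cell types and for pan-leukocyte genes were highest in the same library.

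Promoters of both pathways are known for a shared module of X and Y boxes, on which CIITA and NLRC5 act through DNA-bound factors. Since members of both classes moved together, the promoters were read from RefSeq (GRCm38.p6 table, 250 bases before to 50 after each start), which held 6 of the 10 members, and the runs shown were placed in GRCm39 by exact match. The letters TGACG followed on the same strand within 40 bases by ATTGG were searched on both strands, a choice made after these sequences had been seen. The motifs do not overlap each other in a pair. TGACG occurred in 20.8% of 32851 promoters and ATTGG in 37.4%, the pair in 1.12%, and the pair with 20 or 21 bases between in 54 of them (0.164%). These 54 belonged to 47 of 27025 genes, among them 5 of the class I and II lists, namely H2-Aa, B2m, H2-K1, H2-D1 and H2-M3. The spacing of 20 or 21 bases is that of the H2-Aa, B2m, H2-K1 and H2-D1 runs themselves. Their place among the 47 was thus fixed by the choice, and the count is no measure of enrichment. The runs are shown 5′ to 3′ with the searched letters in capitals, from chr17:34506841-34506871 (minus strand) for H2-Aa, chr17:34219333-34219362 (minus) for H2-K1, chr17:35481969-35481998 (plus) for H2-D1 and chr2:121978090-121978119 (plus) for B2m.
H2-Aa: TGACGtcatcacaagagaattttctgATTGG
H2-K1: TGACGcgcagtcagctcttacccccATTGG
H2-D1: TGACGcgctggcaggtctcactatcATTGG
B2m: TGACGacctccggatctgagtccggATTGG
H2-Eb1: atgatgctggactcctttgatgctgATTGG
H2-Eb1, at chr17:34524757-34524786 (plus), held ATTGG alone, Tap1 held both motifs but no pair, and H2-DMa held neither at its first start. A match is a description of these letters, and the 21 bases between the motifs in H2-Aa against 20 in the class I promoters are no measure of binding. H2-K1 and H2-D1 shared the pair although their levels had different leading libraries, kidney and lung by label.

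The mRNAs outside the lists with the profile most like the class II mean were sought among 10858 with at least 100 reads in some library, by the root mean square distance of centred log2(RPKM + 1) values over the 6 libraries. The 5 nearest were Fam114a1 (0.25), Iqgap1 (0.28), Itgb7 (0.30), Efemp1 (0.32) and Epha2 (0.33). The class II members themselves lay between 0.40 (Cd74) and 0.50 (H2-Ab1) from their mean, with Ciita at 0.98, while B2m lay at 0.40, as close as Cd74. In all, 716 mRNAs lay within 1, so that 6 points set few profiles apart. Itgb7 encodes an integrin chain of lymphocytes that home to the gut, and Iqgap1 a cytoskeletal scaffold. Itgb7 had 34.8 RPKM in the lung-labelled library and 0.974 RPKM in the small intestine-labelled one, where the brain markers were highest. It had 18.7 RPKM in the brain-labelled library and 11.8 RPKM in the kidney-labelled one, where the markers of small intestine and of colon were highest. Nearest to the class I mean were H1f3 (0.17), Fignl1 (0.19), Aurka (0.19), Tbc1d8b (0.26) and Mcl1 (0.31), of which H1f3 encodes a linker histone and Aurka a mitotic kinase, and 1582 mRNAs lay within 1. With Pearson's r over the same 6 libraries in place of the distance, 2 of the 5 mRNAs for class II and 3 of the 5 for class I were named again.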

How the data were processed

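The authors deposited 1 table per library of RPKM values, reads on the CDS scaled to its length and to all reads on CDSs, with no counts beside them. Per the labels, lysates with cycloheximide were digested with RNase I, fragments of footprint size were cut from a gel, and Cutadapt and STAR with GRCm39 were used. The study's methods, written for its macrophage libraries, which were not analysed here, describe alignment to 1 mRNA a gene (longest CDS, Ensembl release 107) without multi-mapped reads, reads below 15 nt or with over 2 mismatches. Values times CDS length came out as whole reads, within 0.001, for 100% of values. Genes were named through GENCODE M39, whose CDSs matched 18154 of 18437 mRNAs (98.5%). Windows of 29 nt were compared over these CDSs, and over whole mRNAs of 3280 further protein-coding genes as a check chosen after the files were seen.

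Levels carry exact Poisson intervals and shares Wilson intervals. Folds used RPKM + 1 and mRNAs with at least 1 RPKM in some library, or the floor of 3 reads where there were none. Depth lay between 4504853 and 10635031 reads. Libraries were grouped by their labels, with 1 per tissue and no test. Alternatives were a pseudocount of 0.1, no filter, totals without Kri1 and mitochondrially encoded mRNAs, median-of-ratios scaling, wider lists, summed RPKM, unique windows, Pearson's r and lung against heart. The members and lists were chosen with earlier results of these data known. Named are the members, up to 4 genes per wider list at least 4-fold above the median of the other 5 libraries, 7 further pathway genes in any case and the 5 nearest profiles per class; other genes were named after their values were seen. Recovery of reads and fold calls were tested on simulated data. Versions were Python 3.11.15, pandas 2.3.3, matplotlib 3.10.9, scipy 1.17.1 and numpy 2.4.6.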

Additional observations from a re-analysis of the deposited data

How the results depend on the processing

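Class II stayed below class I in all libraries but lung under every alternative tried, but the size of the difference moved, and lung kept its level state only with a pseudocount of 0.1, at 0.09. Leaving out Tap1, chosen after its values were seen, gave -2.96 for brain, -2.34 for colon, -2.45 for heart, -2.94 for kidney, -2.25 for lung and -2.75 for small intestine by label. Wider lists gave -1.71 for colon, -1.32 for heart, -1.37 for kidney, -1.75 for lung and -1.25 for small intestine. Summed RPKM gave -0.24, -0.30, -0.48, -0.36 and -1.26 for the same libraries. Unique windows gave -1.17 for brain, -0.99 for heart, -1.17 for kidney and -0.17 for lung, and a pseudocount of 0.1 gave -0.98 for heart and -2.18 for small intestine. The counts of members higher or lower stayed within 1.5 times of the reported ones, except that 5 lower in colon became 8 without Kri1 and mitochondrially encoded mRNAs. These totals gave class II shares of 0.0534% for brain, 0.0168% for colon, 0.0141% for heart, 0.0591% for kidney and 0.00335% for small intestine, and class I shares of 0.0619%, 0.0119%, 0.0123%, 0.0764% and 0.00549%. They shifted the median mRNA by 0.36 (log2) in kidney, 0.22 in small intestine and 0.12 in colon, and median-of-ratios scaling shifted it by -0.39 in lung, -0.12 in colon, 0.15 in heart, 0.15 in kidney and 0.18 in small intestine. Under either scaling 6 members in place of 7 were highest in lung, with H2-Ab1 highest in kidney, and Tap1 in lung stood at 0.05 or -0.10 in place of 0.14. The window shares of the members were the same over whole mRNAs. The shift of the wider lists and of Tap1 follows from the mRNAs averaged, and the cause of the other moves was not tested. Depth limits Nlrc5, Ciita and H2-DMa, with 54, 164 and 151 reads in all libraries. No paired analysis was possible because each tissue has 1 library.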
